A study of Mus musculus with 8 samples.

Results

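The 10 genes described here are those whose products or promoters are used to find haematopoietic stem cells (HSCs): Procr, Slamf1, Ly6a, Cd27, Cd9, Cd63, Cd48, Cd34, Fgd5 and Ctnnal1. They were chosen by name as genes of HSC sort gates and HSC reporter mice, and all 10 of 10 were present among the 11854 named entries of the table. The libraries were made from polyadenylated RNA of HSCs sorted from bone marrow of 8 mice on the C57BL/6 background, 1 library per mouse. The wild type group held 4 mice and the Nupr1-/- group held 4 mice, which lack the stress-induced chromatin protein Nupr1 by label. The labels name no treatment, age, sex or sort gate for either group, nor the part of Nupr1 that was deleted or the cells in which it was deleted. Values are normalised reads, that is, reads divided by 1 size factor per library, and each log2 change is the labelled knockout value minus the wild type value, on the scale of log2(value + 1).

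HSCs are rare bone marrow cells that renew themselves and supply every blood lineage, and no single antigen isolates them. Sort schemes therefore combine antigens that HSCs carry, such as SCA-1 (Ly6a), EPCR (Procr) and CD150 (Slamf1), with antigens that long-term HSCs lack or carry at a low level, such as CD48 and CD34. Reporter alleles at genes such as Fgd5 and Ctnnal1 mark much the same cells without antibodies. Transcript and surface protein are separate measures, and only the transcript was read here.

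Slamf1 and Cd48 are neighbouring genes of the SLAM receptor family on chromosome 1, separated by 61868 bases, and are used in opposite ways in the gate. Procr and Cd27 were the 2 genes whose wild type and labelled knockout values did not overlap, which held for 11.7% of all tested genes. The sequence just upstream of the start of each of these 4 genes is shown for that reason. The sequences were taken from the RefSeq promoter table (GRCm38.p6, the mm10 build), cut to end before both the RefSeq and the GENCODE start, and are written 5′ to 3′ on the strand of the gene. Capitals mark matches to the motifs named after them.
Slamf1, chr1:171766882-171767126, plus strand: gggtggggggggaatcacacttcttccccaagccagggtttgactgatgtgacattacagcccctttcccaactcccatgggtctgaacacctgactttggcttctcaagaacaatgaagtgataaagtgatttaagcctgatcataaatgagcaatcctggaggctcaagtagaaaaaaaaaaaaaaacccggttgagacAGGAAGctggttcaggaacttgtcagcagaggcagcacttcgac
Cd48, chr1:171681742-171681991, plus strand: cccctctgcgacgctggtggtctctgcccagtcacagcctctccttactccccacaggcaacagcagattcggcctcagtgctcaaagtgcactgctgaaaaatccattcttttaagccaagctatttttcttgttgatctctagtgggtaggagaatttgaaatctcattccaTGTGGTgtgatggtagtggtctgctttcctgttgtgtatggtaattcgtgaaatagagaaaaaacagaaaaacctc
Procr, chr2:155750967-155751116, plus strand: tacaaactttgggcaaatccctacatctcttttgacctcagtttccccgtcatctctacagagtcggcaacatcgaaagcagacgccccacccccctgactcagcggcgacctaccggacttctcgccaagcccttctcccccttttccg
Cd27, chr6:125237028-125237277, minus strand: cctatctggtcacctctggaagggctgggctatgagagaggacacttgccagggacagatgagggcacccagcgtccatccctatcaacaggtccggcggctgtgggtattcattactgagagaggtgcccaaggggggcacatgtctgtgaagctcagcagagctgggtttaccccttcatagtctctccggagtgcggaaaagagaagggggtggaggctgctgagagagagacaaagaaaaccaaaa

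Short motifs, 6 in all, were searched on both strands, and no match overlapped another. The window of Slamf1 held 1 ETS core (AGGAAG), 49 to 44 bases before the RefSeq start. That of Cd48 held 1 RUNX core (TGTGGT), 76 to 71 bases before the RefSeq start. The gene positions given below are those of GENCODE, whose starts differ. The windows of Procr and Cd27 held none of the 6 motifs. Among 32851 promoter windows of 250 bases, AGGAAG was present in 29.5%, TGTGGT in 14.0%, a GATA motif (AGATAA) in 9.99%, a GC box (GGGCGG) in 32.7%, an E-box (CAGCTG) in 13.0% and a TATA box (TATAAA) in 12.4%. The Procr window was shorter, at 150 bases, than these. Each match is a description of the letters in the window.

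The libraries held 2296101 to 4769401 reads in named genes, and 11018 to 11701 genes with reads. Nupr1 itself did not separate the groups: it ranged from 134 to 318 normalised reads in wild type and from 119 to 200.6 in libraries labelled knockout (log2 -0.50, SE 0.34, limma adjusted p = 0.433), so the groups are named by their labels throughout. Whether its remaining reads come from exons inside or outside a deletion cannot be read from the table. Xist, a non-coding RNA of the inactive X chromosome, was 0 to 11.8 in wild type and 107 to 159 in libraries labelled knockout. A difference in the sex of the mice thus cannot be told apart from genotype in any comparison. The Y-linked gene Kdm5d averaged 39.1 in wild type and 16.4 in libraries labelled knockout, and its groups overlapped (limma adjusted p = 0.461). The sex of the mice was not tested. The deviation of a gene from its mean over the libraries correlated with transcript GC content, positively in the 4 libraries labelled knockout (Spearman rho across 10889 genes 0.150 to 0.301) and negatively in the 4 wild type libraries (-0.303 to -0.138). Genes are not independent replicates, and these rho values are descriptions. On the first principal component (25.6% of the variance) wild type library 2 lay at -126.5 and the other 7 libraries between 0.812 and 36.9. On the second (22.4%) wild type library 2 lay at -21.8, near the libraries labelled knockout (-61.3 to -24.1). The other wild type libraries lay between 45.7 and 67.3.

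Transcripts of 9 of the 10 genes were present in all 8 libraries, and Cd48 was the exception. Per kilobase of the longest annotated transcript, averaged over the 8 libraries, Ly6a was highest at 1193 ± 264 normalised reads per kb (SD, n = 8). It was followed by Cd9 at 513 ± 77.1, Cd27 at 341 ± 103, Cd63 at 328 ± 65.3 and Procr at 307 ± 70.8. Below these lay Cd34 at 135 ± 42.5, Slamf1 at 79.1 ± 27.8, Ctnnal1 at 64.5 ± 24.2, Fgd5 at 52.7 ± 15.6 and Cd48 at 25.3 ± 41.5. The order thus fell into steps: the ranges of Ly6a and Cd9 did not overlap, nor did those of Procr and Cd34, whereas every other pair of neighbours overlapped. Cd27 exceeded Cd63 in 4 of 8 libraries, and Cd63 exceeded Procr in 4 of 8, so the order among these 3 is not set beyond their spread. With the union of all exons as the length, Cd27 moved below Cd63 and Procr, and Fgd5 moved above Ctnnal1. Cd34 and Slamf1 were then level, at 56.79 and 56.77 normalised reads per kb.

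**Figure D1:**
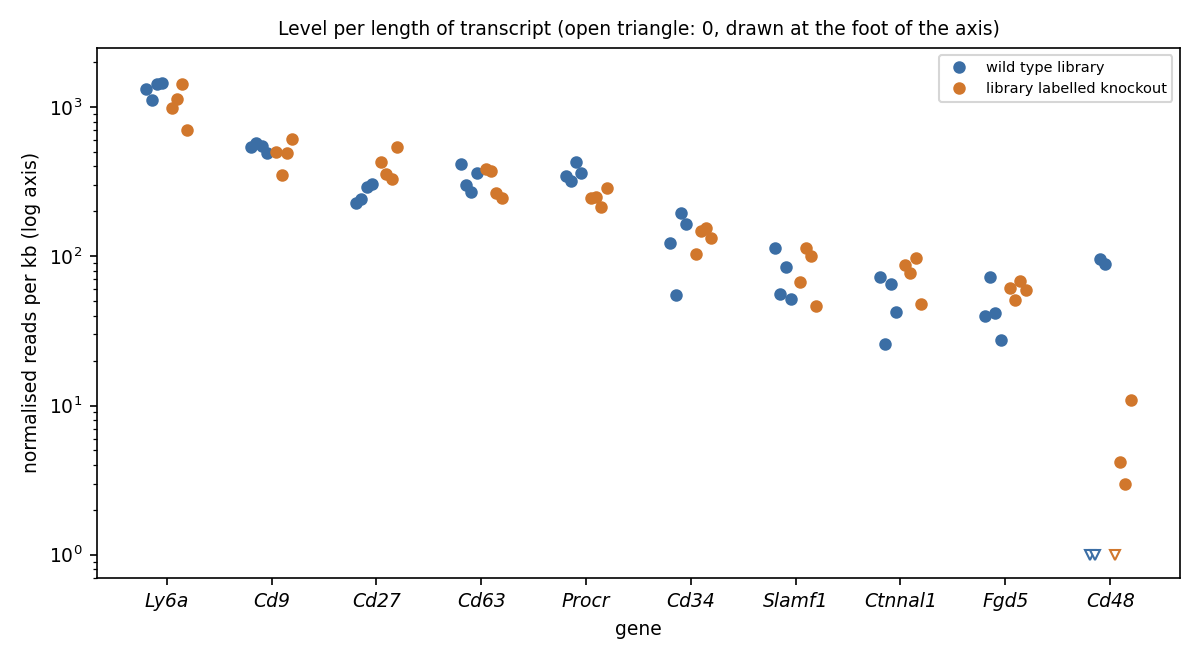
Normalised reads per kb of longest transcript (log axis) for the 10 genes in order of their mean, with 1 point per library (blue, wild type; orange, labelled knockout). Ly6a lies above the other 9 genes, and Cd48 reaches the level of Slamf1 only in wild type libraries 3 and 4, while open triangles mark its 3 libraries at 0.

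Of the 10 genes, 9 had at least 10 normalised reads in at least 4 libraries and were tested, and Cd48 was not. None of the 9 passed the limma test (adjusted p under 0.05 over all 10989 genes tested), against 418 of all genes, or 3.8%. The number was also 0 on the recovered reads with edgeR, DESeq2 and limma-voom, which called 3.1%, 7.39% and 5.92% of all genes. It was 0 with the trend in GC and length taken out (0.321% of all genes) and without wild type libraries 3 and 4 (0.4%). At an unadjusted p under 0.05, limma gave 2 of the 9, against 19.7% of all genes. By the same threshold edgeR and DESeq2 each gave 2 and limma-voom gave 4. With the GC and length trend removed it was 3, namely Procr, Cd63 and Ctnnal1. The share of all genes at that threshold was taken for limma only, so the other counts have no background. Of the 9 log2 changes 5 were above 0 and 4 below, with a median of 0.09 against 0.03 over all genes, and a median size of 0.36 against 0.49. The groups did not overlap for 2 of the 9 genes, Procr and Cd27, against 11.7% of all genes, of which 5.91% were lower and 5.78% higher in libraries labelled knockout. The coefficient of variation over the 8 libraries ran from 15.0% (Cd9) to 37.4% (Ctnnal1) in the 9, where the median gene had 42.4% and the middle 80% of genes lay between 21.7% and 83.0%. All 9 also lay above the median level of the tested genes (141 normalised reads, not scaled to length), and strongly read genes vary less, so this spread is not like for like.

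**Figure D2:**
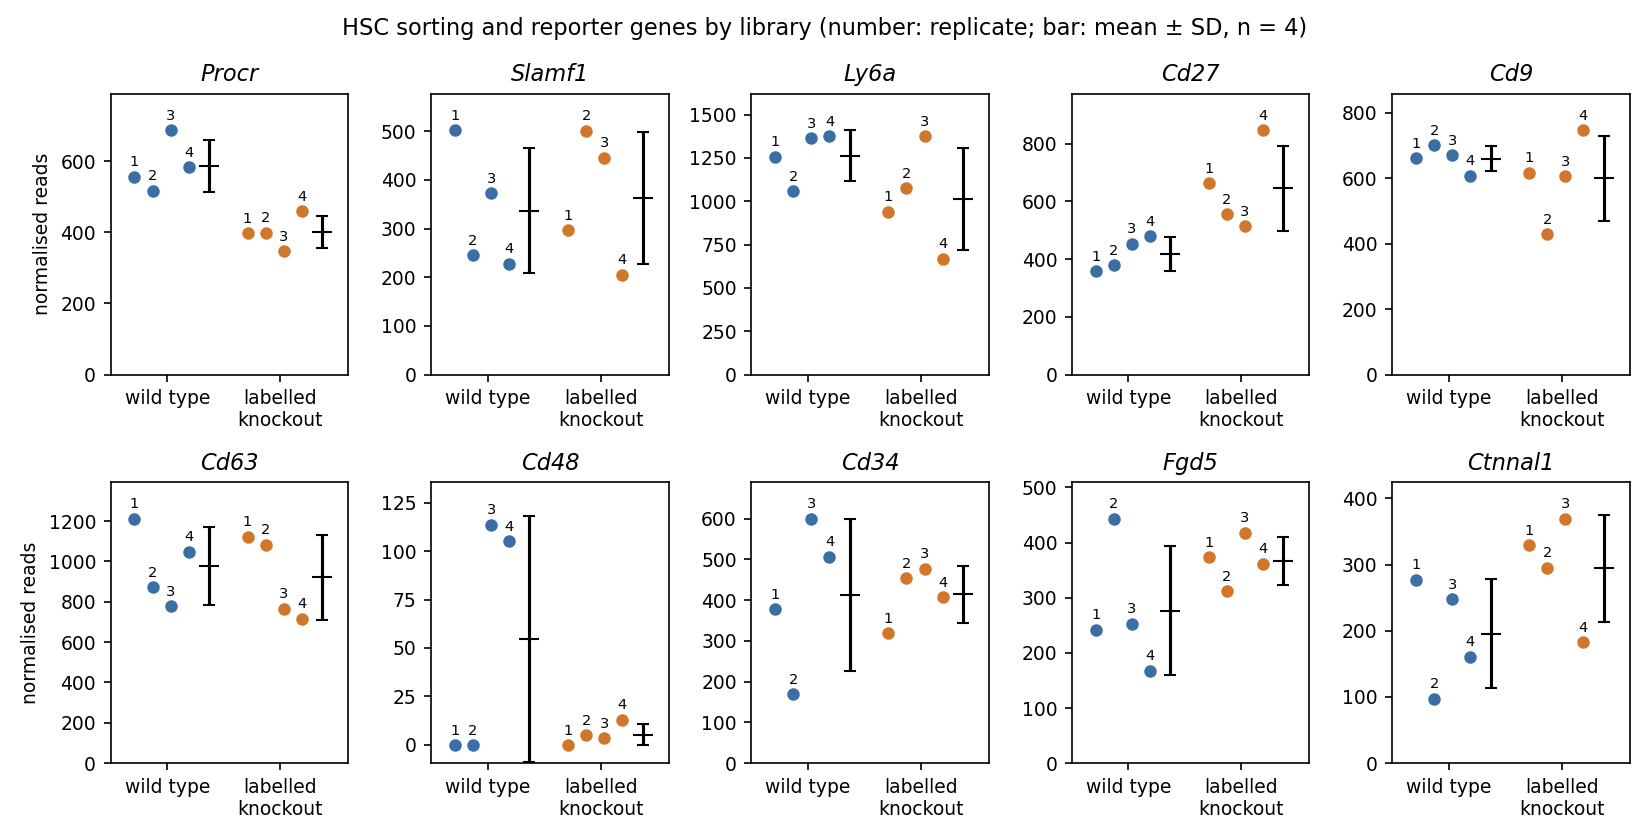
Normalised reads of the 10 genes (vertical axes start at 0 except for Cd48, where the SD bar runs below 0), with 1 numbered point per library and the mean ± SD of the 4 libraries of each group. The points of the groups do not overlap for Procr and Cd27, and Cd48 is high in wild type libraries 3 and 4.

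Procr encodes the endothelial protein C receptor, which binds protein C and marks HSCs with long-term activity. In order of library number, its normalised reads were 556, 516, 687 and 583 in wild type against 398, 399, 346 and 459 in the 4 labelled knockout. Every library labelled knockout thus lay below every wild type library, the closest being library 4 labelled knockout and wild type library 2. The mean was 586 ± 72.9 in wild type and 401 ± 46.2 in libraries labelled knockout (SD, n = 4 each, exact permutation p = 0.0286, the smallest that 70 assignments allow). The log2 difference was -0.55 (SE 0.22, 95% interval -0.998 to -0.09), and it missed the threshold after adjustment over all genes (limma adjusted p = 0.167). The gene lies at chr2:155751117-155755471 on the plus strand, with no exon bases in common with another gene.

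Cd27 encodes a receptor of the tumour necrosis factor family that is present on HSCs and early progenitors. Its values were 357, 379, 454 and 478 in wild type and 663.5, 555, 514 and 846 in libraries labelled knockout. All 4 libraries labelled knockout lay above all 4 wild type libraries, and library 4 labelled knockout was highest. Means were 417 ± 58.1 and 645 ± 148 (SD, n = 4 each, exact permutation p = 0.0286), with a log2 difference of 0.61 (SE 0.23, 95% interval 0.13 to 1.09, limma adjusted p = 0.145). With the GC and length trend removed the difference was 0.36. The gene lies at chr6:125232622-125237010 on the minus strand and shares 129 exon bases with the microRNA gene Mir8113 on the same strand.

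Because Procr was lower and Cd27 higher in every library labelled knockout, the ratio of their normalised reads, not scaled to length, was formed after these values were seen, as a description with no test. Cd27 over Procr was 0.642, 0.735, 0.660 and 0.820 in wild type libraries 1 to 4. The libraries labelled knockout gave 1.67, 1.39, 1.48 and 1.84. Since each gene already separated the groups, in opposite directions, the ratio had to separate them too and adds no support. Within the groups the 2 genes went together rather than apart (Pearson r 0.78 after removing the group means, 8 libraries that share 1 processing), whereas across all 8 libraries r was -0.48. This r within groups was the highest among all pairs of the tested genes, which ran down to -0.78 (Slamf1 and Cd27).

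Slamf1 encodes CD150, the SLAM receptor of a widely used HSC gate. Its values were 502, 245, 373 and 228 in wild type and 296, 501, 445 and 206 in libraries labelled knockout. The groups covered the same range, and the highest and the lowest library differed 2.44-fold. The log2 difference was 0.09 (SE 0.32, limma adjusted p = 0.904), and its 95% interval of -0.58 to 0.77 leaves room for more than a 1.5-fold change either way. With the GC and length trend removed it was 0.64, and without wild type libraries 3 and 4 it was -0.04. The gene lies at chr1:171767127-171801184 on the plus strand.

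Ly6a encodes SCA-1, the antigen that with KIT defines the stem and progenitor compartment of the marrow. It was 1256, 1059, 1363 and 1376 in wild type and 939, 1076, 1374 and 669 in libraries labelled knockout. Library 4 labelled knockout was lowest, and library 3 labelled knockout was as high as the highest wild type library. The means of 1263 ± 146 and 1015 ± 293 (SD, n = 4 each) gave a log2 difference of -0.36 (SE 0.21, 95% interval -0.80 to 0.09, limma adjusted p = 0.369), or -0.19 with the GC and length trend removed. Ly6a lies at chr15:74994877-74998031 on the minus strand within a cluster of near-identical Ly6 genes, so part of its reads could belong to a relative. Of that family Ly6c1 had 0 to 20.9 normalised reads per library.

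Cd9 and Cd63 encode tetraspanins, membrane proteins that organise other receptors. Both are carried by HSCs, CD9 at the surface and CD63 also in late endosomes. Cd9 had the smallest spread of the 10 genes, with 660, 701, 670 and 608 in wild type and 617, 429, 605 and 746 in libraries labelled knockout. The log2 difference of Cd9 was -0.16 (SE 0.21, 95% interval -0.61 to 0.28, limma adjusted p = 0.714), and 0.07 with the GC and length trend removed. Cd63 was 1212, 871, 779 and 1048 in wild type and 1121, 1082, 765 and 715 in libraries labelled knockout. In each group 2 libraries were high and 2 low, and the groups covered the same range. Its log2 difference was -0.09 (SE 0.21, 95% interval -0.54 to 0.35, limma adjusted p = 0.846), the single interval of the 9 that stayed inside a 1.5-fold change, but with the GC and length trend removed the value was -0.58 (limma adjusted p = 0.237). Cd9 lies at chr6:125460266-125494791 on the minus strand and shares 218 exon bases with the opposite-strand gene Gm26728, from which unstranded reads cannot be told apart. Cd63 lies at chr10:128900989-128912822 on the plus strand.

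Cd48 encodes a SLAM family ligand that is carried by most progenitors and blood cells and that long-term HSCs lack. It was read in 5 of 8 libraries and divided the wild type group. Its normalised reads were 0, 0, 114 and 105 in wild type, against 0, 4.99, 3.53 and 13.0 in libraries labelled knockout. Wild type libraries 3 and 4 were thus high, at 114 reads (exact Poisson 95% interval 94.0 to 137) and 139 reads (117 to 164), and the other 6 libraries had 0 to 14 reads. A count of 0 was taken to allow up to 3 reads, a lower limit than the 3.69 reads of the same Poisson interval. Those 3 reads are 2.09, 2.96 and 4.37 normalised reads in wild type libraries 1 and 2 and library 1 labelled knockout. The intervals and this limit cover counting error only. Per kb, Cd48 was 1.14 and 1.72 times Slamf1 in wild type libraries 3 and 4 and at most 0.235 times Slamf1 elsewhere. Cd48 lies at chr1:171682009-171705258 on the plus strand.

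The group means of Cd48 were 54.7 ± 63.2 in wild type and 5.37 ± 5.48 in libraries labelled knockout (SD, n = 4 each), and the groups overlapped (exact permutation p = 0.486). The difference on the log2(value + 1) scale was -1.25 with all libraries and 2.14 without wild type libraries 3 and 4 (exact permutation p = 0.333), so its direction rests on these 2 libraries. In bulk RNA, more cells with a transcript and more transcript per cell cannot be told apart.

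Genes of some other cells were also high in wild type libraries 3 and 4, but not those of all lists. The erythroid list (2275) and the stromal list (26.5) had their lowest sums of the 8 libraries in wild type library 4. The monocyte and macrophage list was 2343 there, against 2657 in library 3 labelled knockout. The T and NK cell list was 295 in wild type library 3, against 522 in library 2 labelled knockout. These lists were nonetheless high in the other library of the pair. Wild type library 3 had the highest sums of the 8 for the monocyte and macrophage list (3211) and the stromal list (177). Wild type library 4 had the highest sum for the T and NK cell list (642). Flt3, the receptor that marks multipotent progenitors without long-term activity, had 21.6, 0.985, 97.7 and 135 normalised reads in wild type and 13.1 to 48.6 in those labelled knockout. Flt3 thus showed the same division of the wild type group as Cd48. The progenitor list (5 of 16 genes in the table) summed to 1799, 1484, 2875 and 3588 in wild type and to between 1322 and 1992 in the labelled knockout group. Prtn3, a granule gene also of the neutrophil list, made up most of these sums (1420, 983, 2418 and 2908 in wild type). The neutrophil list, which is Prtn3 and Csf3r here, summed to 1610, 1110, 2677 and 3226 in wild type and to between 1044 and 1601 in libraries labelled knockout, the same division.

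B cell genes (3 of 13 in the table: Ighm, Cd79b and Vpreb1) summed to 290, 423, 2125 and 7634 in wild type and to between 213 and 380 in libraries labelled knockout. Ighm, the immunoglobulin heavy chain, was at 50.8, 38.4, 1387 and 6740 in wild type, and at 0 in libraries 2 and 4 labelled knockout. Vpreb1 was at 0 in wild type library 2. The list of dendritic cell and MHC class II genes (7 of 12 in the table) summed to 1175, 468, 2986 and 4097 in wild type and to between 664 and 1690 in those labelled knockout. Cd74, its invariant chain gene, was 155, 71.9, 938 and 1076 in wild type. The part of these cells in the Cd48 values was not tested. The 24 other HSC surface genes did not show the division, with sums of 12713 and 10531 in wild type libraries 3 and 4 and of 11811 to 13731 in the other 6.

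**Figure D3:**
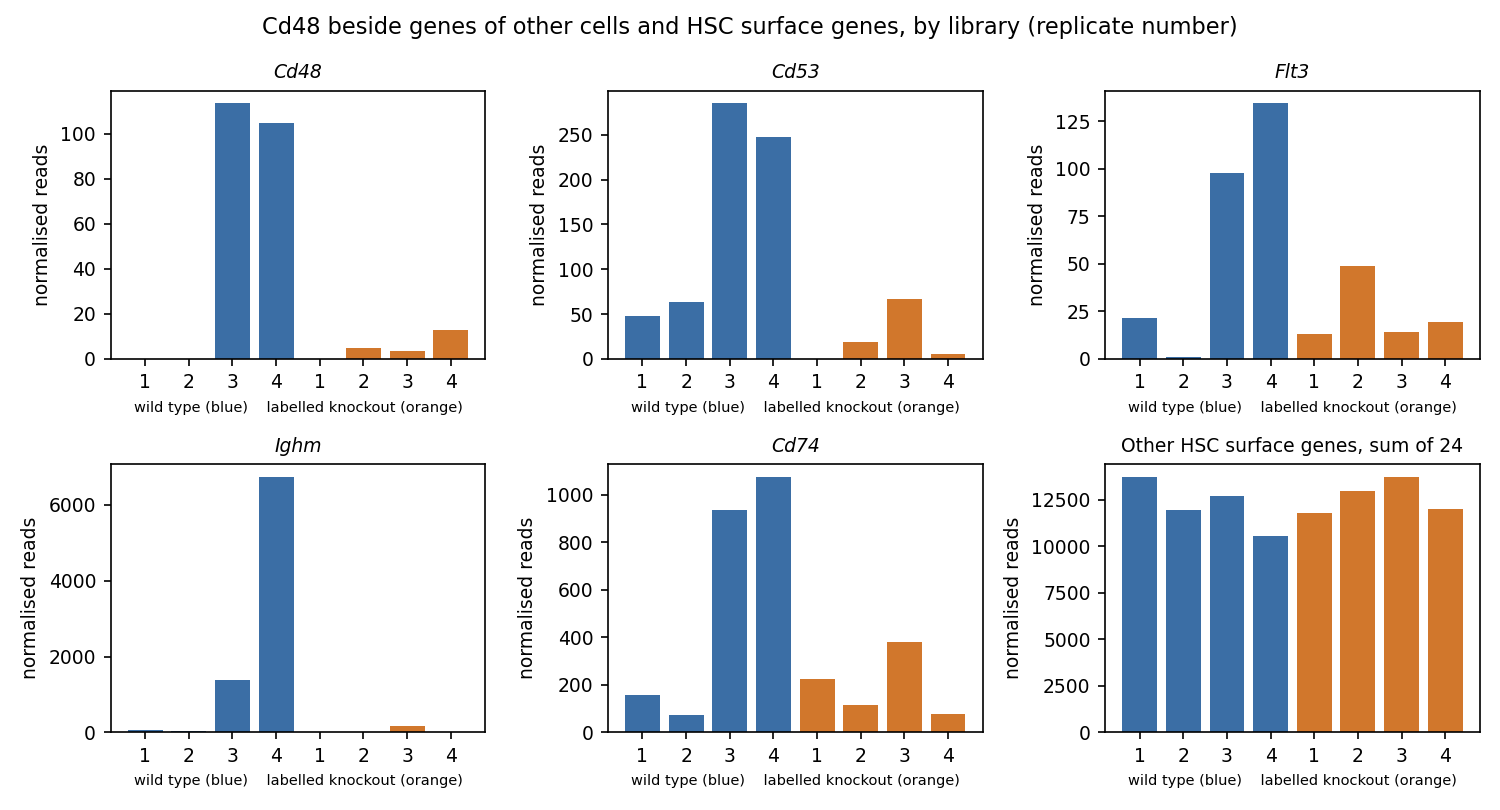
Normalised reads of Cd48, Cd53 (a leukocyte tetraspanin), Flt3, Ighm and Cd74 and the summed level of 24 other HSC surface genes, with 1 bar per library (blue, wild type 1 to 4; orange, labelled knockout 1 to 4). Wild type libraries 3 and 4 are the highest 2 in the first 5 panels, while the sums of the HSC surface genes lie between 10531 and 13731.

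Cd34 encodes a sialomucin that is low on adult mouse long-term HSCs and rises on short-term HSCs and progenitors. Its normalised reads were 378, 169, 600 and 506 in wild type and 319, 454, 477 and 407 in libraries labelled knockout. Wild type libraries 3 and 4 were again the highest of the 8 and wild type library 2 the lowest. The means were 414 ± 186 and 414 ± 69.7 (SD, n = 4 each), with a log2 difference of 0.13 (SE 0.32, 95% interval -0.55 to 0.81, limma adjusted p = 0.860). Without wild type libraries 3 and 4 the difference was 0.69 (limma adjusted p = 0.334), without wild type library 2 it was -0.25, and with the GC and length trend removed it was 0.53. Relative to Slamf1 per kb of longest transcript, Cd34 was 1.09, 0.997, 2.32 and 3.21 in wild type and 1.56, 1.31, 1.55 and 2.86 in libraries labelled knockout. The size of these ratios depends on the length used, though their order over the libraries does not. Library 4 labelled knockout, where Slamf1 was lowest, was high by this ratio as well. Relative to Procr per kb, Cd34 was 0.357, 0.172, 0.459 and 0.456 in wild type and 0.421, 0.597, 0.723 and 0.466 in libraries labelled knockout. By this ratio wild type libraries 3 and 4 still lay above wild type libraries 1 and 2. Libraries 2, 3 and 4 labelled knockout lay above them in turn. Cd34 lies at chr1:194938819-194961279 on the plus strand and shares 148 exon bases with the opposite-strand gene Gm16897.

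Fgd5 encodes an exchange factor for the GTPase CDC42, and a reporter allele at it marks HSCs. Its values were 242, 443, 253 and 168 in wild type and 373, 312, 418 and 362 in libraries labelled knockout. Wild type library 2 was the highest of all 8, while the other 3 wild type libraries lay below every library labelled knockout. The log2 difference was 0.48 (SE 0.29, 95% interval -0.13 to 1.102, limma adjusted p = 0.379). It was 0.74 without wild type library 2, 0.15 without wild type libraries 3 and 4, and 0.15 with the GC and length trend removed. Fgd5 lies at chr6:91978878-92076004 on the plus strand.

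Ctnnal1 encodes alpha-catulin, a protein related to alpha-catenin, and a fluorescent reporter at it marks HSCs in whole-marrow imaging. Its values were 277, 97.6, 247 and 161 in wild type and 330, 296, 369 and 182 in libraries labelled knockout. Wild type library 2 was lowest, and library 4 labelled knockout lay within the wild type range. Its log2 difference of 0.65 had the highest SE of the 9 (SE 0.35, 95% interval -0.09 to 1.39, limma adjusted p = 0.320). It was 0.35 without wild type library 2 and 0.92 with the GC and length trend removed. Ctnnal1 lies at chr4:56810935-56865188 on the minus strand.

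**Figure D4:**
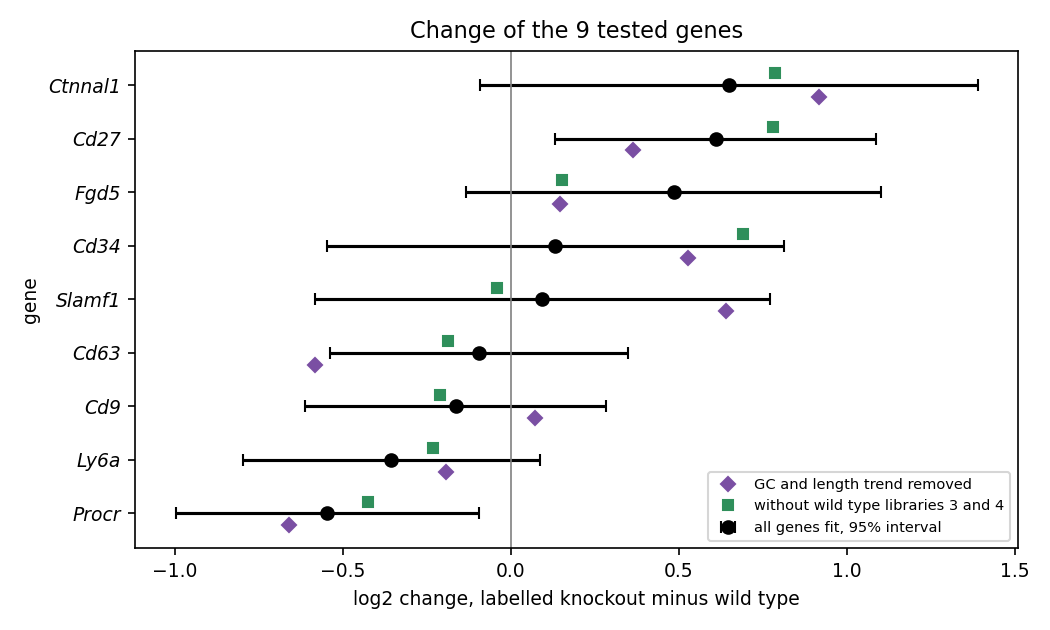
Log2 change, labelled knockout minus wild type, of the 9 tested genes (black, all libraries with 95% interval), with the values after the GC and length trend was removed (violet) and without wild type libraries 3 and 4 (green). The intervals of Procr and Cd27 exclude 0 before adjustment over all genes, and the violet value of Cd9 and the green value of Slamf1 lie on the other side of 0 from the black.

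Read library by library, none of the 8 lacked an antigen or reporter that HSCs carry, and the libraries differed in which were high. Wild type library 1 had no Cd48 reads and the highest Slamf1 (150% of the median of the 8 libraries) and Cd63 (126%). Wild type library 2 also had no Cd48 reads, together with the lowest Cd34 (39.4%) and Ctnnal1 (37.2%) and the highest Fgd5 (132%). Wild type library 3 had the highest Procr (141%) and Cd34 (139%) beside its Cd48 reads. Wild type library 4 had the highest Ly6a (118%) beside its own, with Procr at 120% but Slamf1 at 68.0%, Ctnnal1 at 61.4% and the lowest Fgd5 (49.8%). Wild type library 3 had Slamf1 at 112%, Ctnnal1 at 94.3% and Fgd5 at 75.2%, so the genes of the positive gate and the reporters did not go one way in these libraries.

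Among libraries labelled knockout, library 1 had no Cd48 reads, and each of its 9 other genes was between 74.2% and 134% of its median. Library 2 had the lowest Cd9 (67.2%) and a Slamf1 (150%) as high as that of wild type library 1. Library 3 had the lowest Procr (71.0%) and the highest Ctnnal1 (141%). Library 4 had the lowest Slamf1 (61.5%), Ly6a (57.4%) and Cd63 (74.5%), and the highest Cd27 (170%) and Cd9 (117%). Library 4 thus held 5 of the extremes of the 10 genes, as well as the most Cd48 reads outside wild type libraries 3 and 4.

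The antigens of the usual lineage depletion were sparse. Of 14 such genes 3 were in the table (Cd4, Itgam and Klrb1c), and they summed to 11.8 to 136 normalised reads in wild type and 17.7 to 92.6 in libraries labelled knockout. Itgam, the integrin of myeloid cells, had at most 15.0 per library. No entry of the table was read in fewer than 3 libraries, and the other 11 of these genes were not analysed here. Some markers of mature cells were read in all libraries and others were at 0 in some, such as C1qc in wild type library 1. Lyz2 of monocytes averaged 2134 ± 705 and 2077 ± 509, and Hbb-bt of red cells 143 ± 21.5 and 129 ± 25.6 in wild type and libraries labelled knockout (SD, n = 4 each).

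Other surface genes used to enrich HSCs gave a background for the 10. All 24 were in the table and 22 were tested, of which 3 rose in libraries labelled knockout, 4 fell and 15 did not pass (of all genes 1.68% rose and 2.12% fell), with a median log2 change of -0.05 against 0.03 over all genes. Itga2b (CD41), the integrin of platelets and platelet-biased HSCs, rose from 175 ± 84.5 to 556 ± 109 (SD, n = 4 each; log2 1.76, SE 0.32, limma adjusted p = 0.00852). Tie1, an endothelial and HSC receptor kinase, rose from 176 ± 45.3 to 465 ± 47.8 (log2 1.43, SE 0.27, limma adjusted p = 0.0125), and Eng (endoglin) rose by 0.92 (adjusted p = 0.0305). Cd38, an ectoenzyme carried by adult mouse HSCs, fell from 228 ± 105 to 26.3 ± 15.3 (log2 -3.14, SE 0.63, limma adjusted p = 0.0145). Itga6 (CD49f) fell from 753 ± 129 to 375 ± 36.3 (log2 -0.99, limma adjusted p = 0.0198). Abcg2, the dye efflux pump of the side population, fell from 824 ± 107 to 456 ± 91.1 (log2 -0.87, limma adjusted p = 0.0341). Alcam was the fourth that fell and lies outside the naming rule (log2 -1.84, limma adjusted p = 0.0376).

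With the GC and length trend removed 1 of the 7 passed (Itga6, log2 -1.03, limma adjusted p = 0.0430). The log2 values of Cd38 (-2.62), Itga2b (1.26) and Tie1 (0.95) stayed large in that fit without passing, whereas those of Eng (0.45) and Abcg2 (-0.20) were smaller. Without wild type libraries 3 and 4 none of the list passed, in a fit with 2 wild type libraries. Leaving out 1 library at a time, Itga2b passed in 8 of 8 fits, Tie1 in 7, Cd38 in 6, Itga6 in 4 and Eng and Abcg2 in 1 each.

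Genes used as other HSC reporters or named for HSC identity were all in the table, and 21 of 21 were tested. Vwf, a clotting protein whose reporter marks platelet-biased HSCs, rose from 614 ± 140 to 1076 ± 159 (SD, n = 4 each; log2 0.82, SE 0.21, limma adjusted p = 0.0360). Mllt3, a chromatin reader that maintains HSCs, fell from 1399 ± 239 to 838 ± 159 (log2 -0.74, SE 0.20, limma adjusted p = 0.0440). The other 19 did not pass, and the median log2 change was -0.21. The share called over all genes was 3.8%. Leaving out 1 library at a time, Vwf passed in 3 of 8 fits and Mllt3 in 1, and the list held between 0 and 4 calls. The 4 were without wild type library 2, in a fit that called 881 of all genes, against 418 with all libraries. Mllt3 missed the threshold with edgeR (adjusted p = 0.0505). With the GC and length trend removed none passed, with Vwf at 0.40 and Mllt3 at -0.22.

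The wider families of the 10 genes gave no call. In the SLAM family 2 of 10 genes were in the table, and Cd84 was 409 ± 44.9 in wild type and 238 ± 42.004 in libraries labelled knockout (SD, n = 4 each; log2 -0.79, limma adjusted p = 0.0919), while Slamf8 was at 10.3 ± 8.88 and 18.8 ± 7.67. Of 17 tested tetraspanins none passed: Cd81 was 1914 ± 415 and 2130 ± 288, and Tspan32 was 1472 ± 257 and 2205 ± 337 (limma adjusted p = 0.0761). Cd53, a leukocyte tetraspanin named after its values were seen, was 47.3, 63.1, 285 and 248 in wild type and 0 to 67.1 in libraries labelled knockout, the same division as Cd48. In the Ly6 family 2 genes were tested and none passed, with Ly6e at 4043 ± 1577 and 4052 ± 246 and Ly6i, which was not tested, at 9.95 ± 8.25 and 11.02 ± 19.8. None of 8 genes related to Fgd5 and Ctnnal1 passed, Cdc42 being 2130 ± 155 and 1592 ± 211 (limma adjusted p = 0.153) and Ctnnb1 1886 ± 326 and 1322 ± 165 (limma adjusted p = 0.119).

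Binding and signalling partners of Procr, Cd27 and Cd34 numbered 10 tested, of which 1 fell and 9 did not pass, against 2.12% of all genes that fell. Pros1 encodes protein S, the cofactor of activated protein C. It was 129, 141, 125 and 129 in wild type and 43.7, 18.7, 38.0 and 42.6 in libraries labelled knockout. The groups were far apart, and the fall was -1.91 on the log2 scale (SE 0.49, limma adjusted p = 0.0382), though it passed in 1 of the 8 fits that leave out a library and did not pass with the GC and length trend removed (limma adjusted p = 0.171). Siva1 and Traf2, which bind the CD27 tail or its signalling complex, were 648 ± 165 and 638 ± 92.4, and 192 ± 98.0 and 267 ± 80.8, in wild type and libraries labelled knockout (SD, n = 4 each).

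Among lists of other blood and marrow cells, megakaryocyte and platelet genes held the most calls. Of 12 tested, 4 rose and 8 did not pass, against 1.68% of all genes that rose, the 4 being Itga2b and Vwf with Gp9 (39.3 ± 19.2 to 234 ± 101, log2 2.55, limma adjusted p = 0.0145) and Pf4 (55.2 ± 35.7 to 179 ± 41.5, log2 1.95, limma adjusted p = 0.0493). Klf1, an erythroid transcription factor, rose from 1.83 ± 1.43 to 56.3 ± 26.7 (limma adjusted p = 0.0341), the single call among 4 tested erythroid genes, and Car2 was 3354 ± 1212 and 5147 ± 876. Eng and Vwf were the 2 calls among 9 endothelial genes. Leaving out 1 library at a time, Gp9 passed in 6 of 8 fits and Pf4 and Klf1 in 1 each. Pf4 missed the threshold with edgeR (adjusted p = 0.0817) and Klf1 with limma-voom (adjusted p = 0.0667). Without wild type library 2 the megakaryocyte and platelet list held 6 calls and the erythroid list 3. That fit called 881 of all genes, against 418 with all libraries. With the GC and length trend removed no gene of these 3 lists passed, although the log2 values of Gp9 (2.22), Pf4 (2.20) and Klf1 (3.87, against 4.39) stayed about as large. No gene passed among 5 progenitor, 1 lineage, 2 neutrophil, 4 monocyte and macrophage, 2 B cell, 3 T and NK cell, 1 mast cell and basophil, 7 dendritic cell and 2 stromal genes tested. Named from these lists were Prtn3 (1932 ± 885 and 1181 ± 275) and Csf3r (223 ± 83.1 and 201.3 ± 55.8) of progenitors and neutrophils. Lck (166 ± 53.5 and 189 ± 114) and Nkg7 (126 ± 111 and 92.8 ± 29.7) stood for T and NK cells, and C1qc (50.9 ± 44.9 and 25.1 ± 12.7) was the second monocyte and macrophage gene.

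The 10 genes did not vary as one unit. Over the 36 pairs of the 9 tested genes and the 8 libraries, Pearson r of log2(value + 1) ran from -0.74 (Ly6a and Cd27) to 0.71 (Slamf1 and Ctnnal1). Fgd5 and Ctnnal1, both reporters, had r of 0.02. These values are descriptions over libraries that share 1 processing and differ in GC trend.

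Among the other 10987 tested genes, those whose pattern over the 8 libraries was most like a member were found by the same r. Angpt1, which encodes a ligand of the HSC receptor TIE2, and Hnrnpdl were nearest to Procr, both at r of 0.98. Slc12a7 (0.97) and Pgp (0.96) were nearest to Cd27, Mkrn1 (0.94) and Panx2 (0.94) to Slamf1, and Ezr (0.95) and Atraid (0.94) to Ly6a. Another tetraspanin, Tspan8, stood second for Cd9 (0.96) after Mex3d (0.96), and Llph (0.97) and Epg5 (0.93) were nearest to Cd63. Ccdc173 and 1600012H06Rik (both 0.97) were nearest to Cd34, Ccdc51 and Rrn3 (both 0.98) to Fgd5, and Car11 (0.99) and Map7d1 (0.98) to Ctnnal1. With 8 libraries and so many genes searched, values of this size arise for every member: between 6 (Cd63) and 77 (Procr) genes exceeded 0.9.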

How the data were processed

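Polyadenylated RNA of sorted bone marrow HSCs from 8 mice was made into Nextera XT libraries, which do not mark strand, per the labels' protocols. The submitters' processing notes name bcl2fastq, HISAT2, featureCounts, Subread, DESeq2 and the build mm10, with no versions or settings. As deposited, each gene has a normalised signal, which by its values is reads divided by 1 size factor per library. In each library 100% of values were whole multiples of 1 step within 0.001. In wild type library 3 this step nearly equals 1, and its recovery rests on its low values. Of 11855 rows 1 has no name and was left out.

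Values were tested as log2(value + 1) with limma 3.58.1 (trend, robust) in R 4.3.3, for the 10989 genes with at least 10 in at least 4 libraries, and p-values (two-sided) were adjusted by Benjamini-Hochberg, with 0.05 as the threshold. Exact permutation tests (two-sided) used the same log2 values. The mice are separate animals. Alternatives were edgeR 4.0.16, DESeq2 1.42.0 and limma-voom on recovered reads, other scalings, added values and filters, removal of a trend in GC content and length, a replicate block, and left-out libraries. The limma, edgeR, DESeq2 and limma-voom fits were tested on simulated data, and the other alternatives were not. Leaving out wild type libraries 3 and 4 together was chosen after seeing the data. A count of 0 was taken to allow 3 reads. Of each gene list the called genes, at most 6, or else the 2 of highest mean were named, with the 2 genes most like each member. The 10 genes and all lists were chosen with earlier results of these data known. Positions are from GENCODE M21, and upstream sequences from RefSeq, where 8 of the 10 genes gave a usable window. A gene of the progenitor list is not reported here and was left out of its sums.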

Additional observations from a re-analysis of the deposited data

Results flagged for a closer look

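Of 58 sets of 4 libraries examined for a library far from the other 3, 2 had one. Chance alone flags about 1 set in 20, so 2 of 58 sets is no more than that rate gives. The mast cell and basophil list, of which Gata1 was the single gene in the table, was 203 normalised reads in wild type library 2 and 0 to 32.9 in the other 3 wild type libraries. The summed dendritic cell and MHC class II list was 1690 in library 3 labelled knockout and 664 to 760 in the other 3.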

How the results depend on the processing

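None of the 9 tested genes passed under any of the 21 alternatives, and their lowest adjusted p was 0.0822 (Cd27, DESeq2). Procr, Ly6a, Cd27, Fgd5 and Ctnnal1 kept their direction under all 21. Slamf1 changed sign with limma-voom (-0.016) and without wild type libraries 3 and 4 (-0.0398), and ranged from -0.0898 to 0.337 with 1 library left out. Cd9 was 0.0708 with the GC and length trend removed, with or without the block. Cd63 ranged from -0.198 to 0.0182 and Cd34 from -0.246 to 0.360 with 1 library left out, and Cd34 was -0.0010 with edgeR and -0.137 with limma-voom. The Cd48 difference was 2.14 without wild type libraries 3 and 4. The cause of these changes was not tested.

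Over all genes, 418 were called, against 764 with DESeq2, 651 with limma-voom, 35 with the GC and length trend removed and 44 without wild type libraries 3 and 4. With 1 library left out the number ran from 49 (library 2 labelled knockout) to 881 (wild type library 2). The replicate block gave 277, and 32 with the GC and length trend removed as well. Same-numbered libraries did not deviate together (correlations -0.0566 to 0.0148), so the numbers were not taken as pairs. Depth limits Cd48 most, since 3 reads are 2.09 to 4.37 normalised reads where it was 0.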
